A study of Mus musculus with 2 samples.

Results

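Class II high tumour macrophages are the cells of these tumours that carried transcripts of the complement component C1q together with much RNA of the antigen-presenting MHC class II genes. They were chosen barcode by barcode from raw counts of unique molecular identifiers (UMIs, each standing for 1 captured transcript). Barcodes were retained when they had 200 or more genes detected and no more than 20% of UMIs from mitochondrial genes. A retained barcode was a member when C1qa, C1qb and C1qc together had at least 5 UMIs and at least 0.1% of its UMIs, and when Cd74, H2-Aa, H2-Ab1 and H2-Eb1 together had at least 0.5%. The monocyte genes Ly6c2, Plac8, Ccr2 and Chil3 had to stay below 0.1% of UMIs, the proliferation genes Mki67, Top2a, Birc5 and Cenpf below 5 UMIs, and the T cell genes Cd3d, Cd3e and Cd3g at 0. This gave 791 of 17746 retained barcodes, 377 from a phototherapy library and 414 from a PBS library.

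The study sequenced single-cell RNA of subcutaneous mouse tumours of 4T1, a line derived from a mammary carcinoma, with a droplet 3′ kit. The labels give 4T1 as the cell type of both samples, although each suspension also held the host's immune cells, among them these macrophages. The treated group was given AIE COF, a covalent organic framework preparation, with phototherapy, and the control group is labelled PBS. Tumours were taken on day 7 after phototherapy in both groups. The labels do not say whether the PBS mice were irradiated. The labels name the mice C57BL/c, which is not resolved here, and do not give the animals' age or how many animals entered each suspension. Each group is 1 library, so no difference between the groups has a replicate check and no p-value is given. Intervals are exact 95% intervals and cover counting error only.

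Macrophages with high MHC class II display peptides on the cell surface to CD4 T cells. H2-Aa, H2-Ab1 and H2-Eb1 encode chains of the class II molecules, the invariant chain Cd74 guides them through the cell and blocks the groove, and H2-DMa and H2-DMb1 encode the exchanger that loads peptide. C1qa, C1qb and C1qc encode the chains of C1q, which in tumours is made largely by macrophages. Class II promoters carry conserved X and Y boxes, bound by the RFX and NF-Y complexes, and the coactivator CIITA joins them there, itself induced by interferon gamma.

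The promoters of a pair of class II genes that set membership are printed because their transcripts were selected together. They are the 250 bases before the RefSeq start on GRCm38.p6, 5′ to 3′ on the gene's strand, chr17:34287824-34288073 on the minus strand for H2-Aa and chr17:34305617-34305866 on the plus strand for H2-Eb1. Capitals mark matches to the motifs spelled out after the sequences.
H2-Aa: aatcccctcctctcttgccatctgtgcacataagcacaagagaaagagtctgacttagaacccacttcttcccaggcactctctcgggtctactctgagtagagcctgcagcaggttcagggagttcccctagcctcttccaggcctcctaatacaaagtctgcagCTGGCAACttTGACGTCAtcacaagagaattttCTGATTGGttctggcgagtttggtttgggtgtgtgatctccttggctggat
H2-Eb1: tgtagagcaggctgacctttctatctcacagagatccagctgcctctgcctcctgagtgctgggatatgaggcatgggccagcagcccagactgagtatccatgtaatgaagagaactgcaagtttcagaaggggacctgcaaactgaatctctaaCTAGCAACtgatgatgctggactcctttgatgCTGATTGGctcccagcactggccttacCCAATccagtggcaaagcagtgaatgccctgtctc
Both hold CTGATTGG, the Y box with its flank, at bases -51 to -44 in H2-Aa and -62 to -55 in H2-Eb1. Both hold CTNGCAAC, part of the X box, at -84 to -77 and -94 to -87, and H2-Aa has the X2 letters TGACGTCA at -74 to -67. Counted on both strands, CTGATTGG occurs in 3.83% of 32851 mouse promoters of this length, CTNGCAAC in 2.84%, TGACGTCA in 1.55% and the Y box core CCAAT, which lies within CTGATTGG on the other strand, in 33.8%. The letters of the 3 longer motifs were chosen after the sequences had been seen. These matches describe letters, not binding.

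In total, 10002 treated barcodes carried 115576457 UMIs and 8962 PBS barcodes 145045294 UMIs, with 500 UMIs as the lowest barcode total on either side. Retained barcodes numbered 9313 and 8433 with medians of 4074 and 6756 UMIs, so the PBS library was deeper per barcode. Among members the order was the other way, at a median of 6976 UMIs and 2268 genes in treated and 6242 UMIs and 2092.5 genes in PBS cells. Members summed to 2808513 treated and 2817415 PBS UMIs, and levels are given as CPM (a gene's UMIs scaled to these sums). Median mitochondrial shares were 3.99% and 4.79%. The libraries shared 39 barcode sequences, 3 of them treated and 4 of them PBS members, and no barcode sequence was a member in both.

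The members carried macrophage genes throughout. C1qa had 4804 treated and 5957 PBS UMIs and was detected in 98.1 and 97.3% of members, C1qb had 5510 and 7655 UMIs and C1qc 7083 and 8313 UMIs. These genes lie side by side on chromosome 4 (C1qc at 136889804 to 136893065, minus strand) and, as part of the rule, are given as a description. Of macrophage genes outside the rule, Adgre1, the F4/80 antigen, stood at 529.8 and 552 CPM, Csf1r, the receptor for colony-stimulating factor 1, at 367 and 345 CPM and Cd68, a lysosomal glycoprotein, had 1100 and 1144 UMIs. The other retained barcodes had 47.6 and 21.1 CPM of Adgre1 and 38.7 and 16.8 CPM of Csf1r. The 4 class II genes of the rule summed to 18782 and 21528 CPM in members, against 26745 and 29531 CPM in dendritic barcodes, which had at least 2 UMIs of Flt3, Zbtb46, Xcr1, Clec9a and Cd209a and the same class II minimum. In the order of the rule, Cd74 was at 5498 and 7389 CPM, H2-Aa at 4812 and 4779 CPM, H2-Ab1 at 4268 and 4825 CPM and H2-Eb1 at 4204 and 4536 CPM.

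Markers of other cell types were present in the members at the levels that follow, and their part in the results was not tested. The 9 conventional dendritic markers summed to 85.1 CPM in treated and 92.3 CPM in PBS members, against 1686 and 1572 CPM in dendritic barcodes, and Cd209a was at 0. Over all retained barcodes these markers summed to 44.9 and 31.2 CPM, less than in members. The 9 B cell markers summed to 57.3 and 32.7 CPM, against 2671 and 2933 CPM in B cell barcodes, with Ms4a1 at 0 in both. Over all retained barcodes they summed to 79.5 and 27.4 CPM. The 10 T cell markers summed to 12.1 and 9.58 CPM, the 3 Cd3 genes being at 0 by the rule. Of 9 neutrophil markers, which summed to 36 and 45.1 CPM against 34.9 and 4.63 CPM over all retained barcodes, Cxcr2, Ly6g and Retnlg were at 0. The 10 tumour and epithelial markers summed to 122 and 127 CPM, against 1342 and 1309 CPM in barcodes with at least 10000 UMIs and no UMI of Ptprc, which encodes the pan-leukocyte protein CD45. The 7 fibroblast markers summed to 428 and 286 CPM with Lum at 0, against 2701 and 3279 CPM over all retained barcodes. The 8 monocyte markers summed to 352.5 and 247 CPM, some of them limited by the rule. The 7 markers of mature dendritic cells stood at 23.1 CPM in treated members, with Ccl22 and Cacnb3 at 0, and at 54.3 CPM in PBS members. Il12b, which is among them, gave 4 of their 65 treated and 91 of their 153 PBS UMIs. The 6 endothelial markers summed to 43.8 and 49.7 CPM, with Cldn5 and Emcn at 0, above the 25.9 and 16.6 CPM over all retained barcodes. The 7 plasma cell markers summed to 98.3 and 88.7 CPM against 209.9 and 83.0 CPM, and the 6 NK cell markers to 4.98 and 6.39 CPM against 13.7 and 15.1 CPM.

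Class II transcripts varied widely among members. The 4 class II genes took 0.501 to 9.80% of a treated member's UMIs, with a median of 1.72%, and 0.506 to 7.82% of a PBS member's, with a median of 1.99%. C1q took medians of 0.606% and 0.760%. Just inside the threshold, 36 treated and 19 PBS members lay between 0.5 and 0.6%, and just outside it 33 and 29 barcodes lay between 0.4 and 0.5%. The lowest members stood at 0.501 and 0.506%, and the highest barcodes outside at 0.492 and 0.498%. Barcodes that met every other condition but fell under the class II threshold are called class II low macrophages here. They numbered 311 treated and 201 PBS barcodes, with median class II shares of 0.10% and 0.158%, 30 and 21 of them without any class II UMI.

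**Figure D1:**
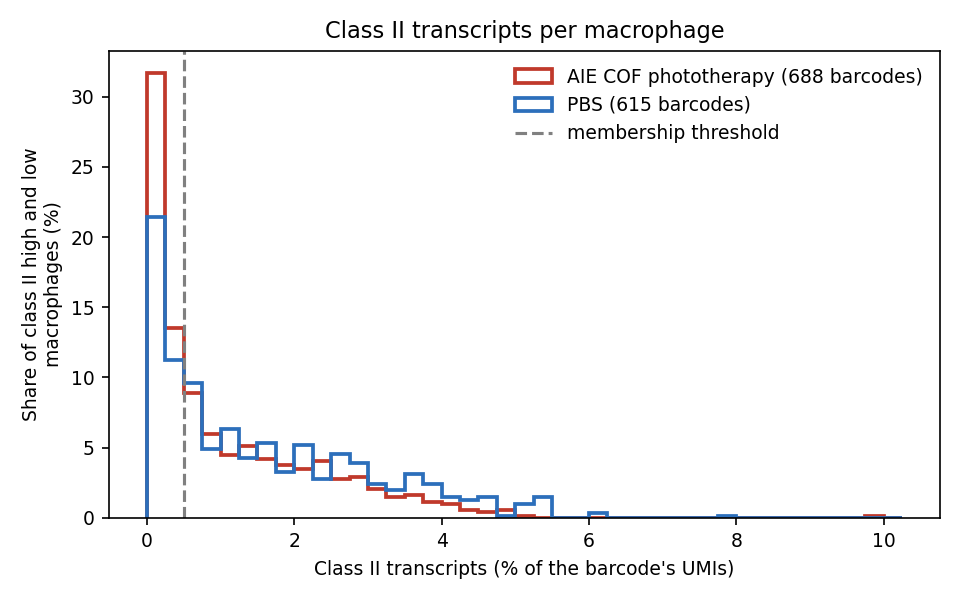
Distribution of class II transcripts per macrophage. The x axis is the share of a barcode's UMIs from Cd74, H2-Aa, H2-Ab1 and H2-Eb1 in %, the y axis the share of the library's class II high and low macrophages in %, red the phototherapy library (688 barcodes), blue the PBS library (615 barcodes), and the dashed line the 0.5% threshold, on both sides of which barcodes lie close by.

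Class II high cells were a smaller part of the macrophages in the treated library. Of macrophages on either side of the threshold, 377 of 688 treated barcodes (54.8%, 51.0 to 58.6%) and 414 of 615 PBS barcodes (67.3%, 63.5 to 71.0%) were class II high, a ratio of 0.814 (0.706 to 0.938). This ratio stayed between 0.756 and 0.87 under the alternatives tried for the rule, filters, doublets and depth. The class II share itself, which the rule used, is described by bins. In 134 treated (35.5%) and 162 PBS members (39.1%) it was 2 to 4%, and in 20 treated (5.31%, 3.27 to 8.07%) and 45 PBS members (10.9%, 8.04 to 14.3%) it was at least 4%. Transitional macrophages, with C1q and at least 0.1% of UMIs from the monocyte genes, numbered 306 and 211. Of high, low and transitional macrophages together, 37.9% of 994 treated and 50.1% of 826 PBS barcodes were class II high, 31.3 and 24.3% class II low, and 30.8 and 25.5% transitional.

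**Figure D2:**
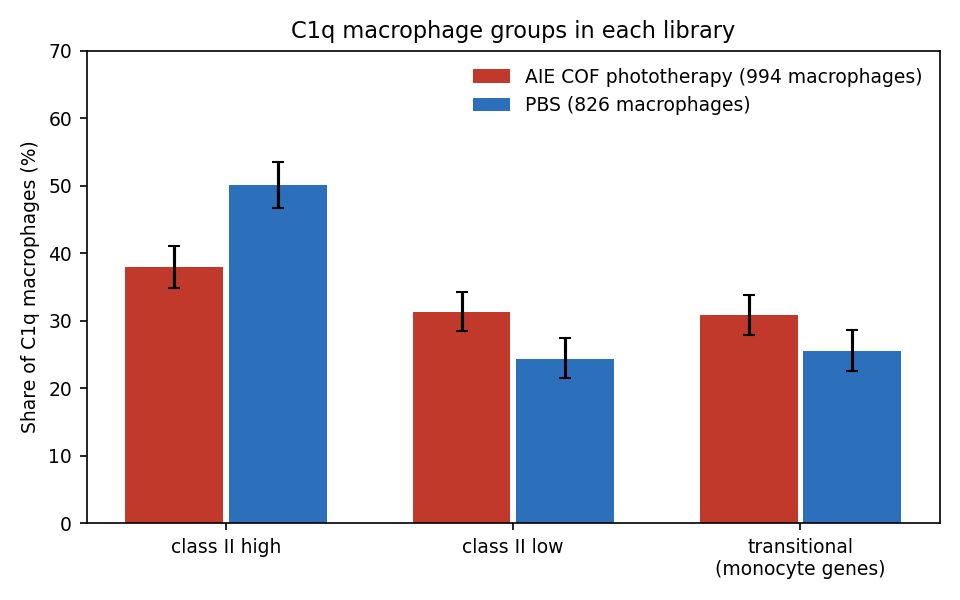
Shares of the 3 C1q macrophage groups. Bars give the share in % of 994 phototherapy (red) and 826 PBS (blue) macrophages, from 0, and error bars are exact binomial 95% intervals, counting error only, with class II high at 37.9 and 50.1%.

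Among all retained barcodes the order of the libraries depended on the depth setting. Members were 4.05% of treated (3.66 to 4.47%) and 4.91% of PBS retained barcodes (4.46 to 5.39%), a ratio of 0.825 (0.715 to 0.95). With barcodes of at least 5000 UMIs alone the ratio was 1.14. With barcodes thinned to 2000 UMIs and shallower ones left out it was 1.03, at 391 treated and 398 PBS members. Both settings leave out shallow barcodes and so change the cells compared, and no direction is drawn from this share. Of barcodes with a Ptprc UMI, 6.07% of 5782 treated and 10.07% of 3537 PBS barcodes were members, a ratio of 0.603 (0.519 to 0.701). B cell barcodes, which enter these denominators, were 780 and 304, and T cell barcodes 1094 and 634. Barcodes with at least 10000 UMIs, no Ptprc UMI and under 5 C1q UMIs enter only the denominator of retained barcodes. They were 1693 treated and 2583 PBS barcodes, or 18.2 and 30.6% of those retained, and their part in the ratios was not tested. Class II low macrophages were 3.34% and 2.38% of retained barcodes, a ratio of 1.40 (1.17 to 1.68).

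Most class II and macrophage genes of the members stayed within 1.5-fold between the libraries. Among the named exceptions, Thbs1, Il1b, Cd14 and Lgals3 were higher and Hspa1b, Ccl12 and Ch25h lower in treated members. UMIs were summed over members of each library, and a gene counted as higher or lower when its treated CPM was at least 1.5-fold above or below its PBS CPM. Of 7761 genes with at least 50 UMIs, 409 were higher (5.27%) and 565 lower (7.28%) in treated members, and the median log2 ratio was -0.016. The same rule in class II low macrophages gave 550 of 6808 genes higher (8.08%) and 678 lower (9.96%), whose sums were smaller. Counts within gene lists are read against these shares, and whether a list stands apart was not tested. A value in parentheses after UMIs or CPM is the log2 ratio of treated over PBS members, followed where given by its interval.

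Thbs1 had the highest ratio of the genes named by level and breadth. It encodes thrombospondin 1, a secreted matrix glycoprotein (chromosome 2, 118111876 to 118127133, plus strand), and had 310 treated and 90 PBS UMIs, or 110.4 and 31.9 CPM, a log2 ratio of 1.79 (1.45 to 2.14). It was detected in 22% of treated and 7.73% of PBS members, and in class II low macrophages its log2 ratio was 1.97. In the PBS library 5 members held 48.9% of its UMIs. Transitional macrophages held more Thbs1 than members, at 203.5 and 106.7 CPM, and the part of monocyte transcripts in its ratio was not tested. Fbxo32, a ubiquitin ligase subunit, followed with 105 and 36.9 CPM (log2 ratio 1.51), and Lpl, lipoprotein lipase, with 323 and 141 UMIs (1.20). Lpl was the exception among the 10 highest in that its class II low ratio, -0.32, pointed the other way, and 43.3% of its treated UMIs came from 5 members. Adgrd1, an adhesion receptor, stood at a log2 ratio of 1.19, Clec4d, a C-type lectin of myeloid cells, at 1.18, and Il7r, the interleukin 7 receptor chain, at 1.07. Adgrd1 stood at 82.6 and 36.2 CPM in members and higher, at 122 and 56.4 CPM, in the other retained barcodes. The part of those barcodes in its ratio was not tested. In class II low macrophages the log2 ratio was 1.01 for Adgrd1 and near 0 for Clec4d, at 0.18 (-0.23 to 0.60). Il7r is also a T cell gene. The Cd3 genes were at 0 in members by the rule, so they cannot show whether T cell transcripts were present. The 10 T cell markers summed to 12.1 and 9.58 CPM in members, and their part in the Il7r ratio was not tested. The others of the 10 highest were Adamts6 (1.12), Tecpr2 (1.06), Emp1 (1.03) and Mxi1 (1.01).

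Hspa1b, an inducible heat shock protein 70 gene, had the lowest ratio of the genes named by level and breadth. It had 35 treated and 260 PBS UMIs, or 12.5 and 92.3 CPM, a log2 ratio of -2.89 (-3.44 to -2.38), and was detected in 5.04% and 15.7% of members. Its near-identical neighbour Hspa1a had 137 and 292 UMIs (-1.09), and the sources used here do not say how reads shared by both copies were counted. Ch25h, the cholesterol 25-hydroxylase induced by interferon, was at 34.9 and 105 CPM, a log2 ratio of -1.59 (-1.93 to -1.25). Ccl12, a chemokine that attracts monocytes (chromosome 11, 82101845 to 82103400, plus strand), had 2243 treated and 5005 PBS UMIs, or 799 and 1776 CPM, a log2 ratio of -1.15 (-1.23 to -1.08). In class II low macrophages Ccl12 was at 1442 and 1347 CPM, a log2 ratio of 0.10, so the libraries were close there and apart in the members. Hdac9, a histone deacetylase (-1.18), Pou2f2, the transcription factor Oct-2 (-1.15), and Tgs1, an RNA cap methyltransferase (-1.15), were also lower. The rest of the 10 lowest were St18 (-1.18), Sirpb1a (-1.09), which has close copies, and Simc1 (-1.06), whose end another gene overlaps. Class II low ratios of Hdac9 and St18 were near 0, at -0.14 and -0.10.

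**Figure D3:**
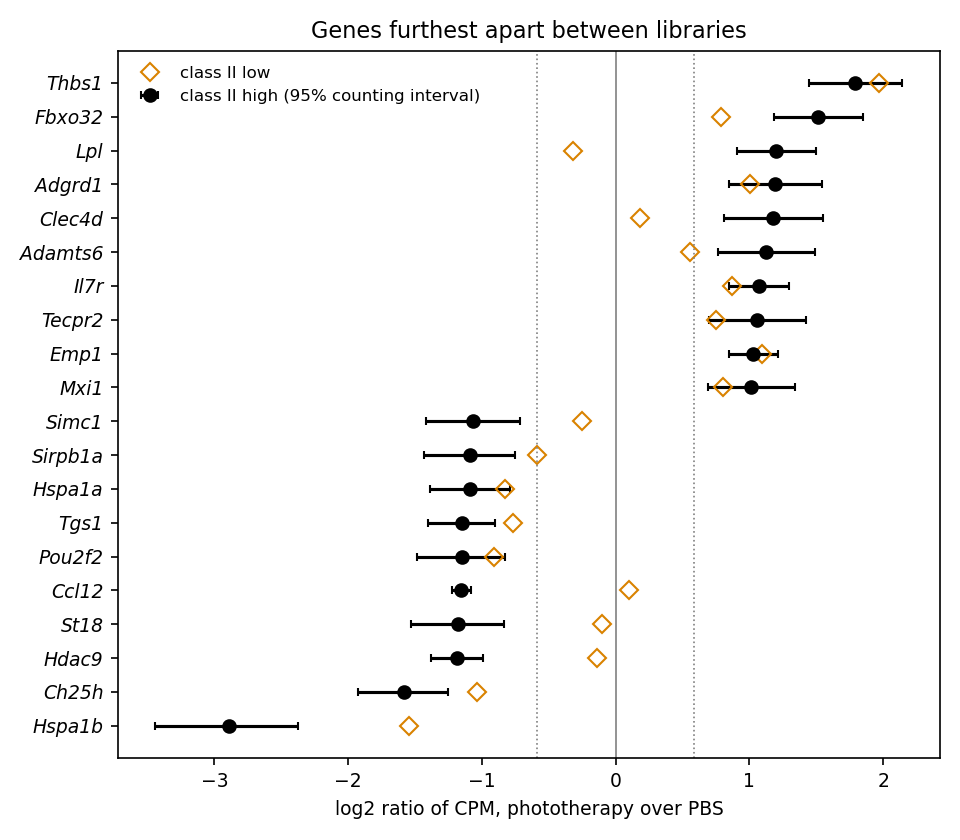
Log2 ratios of CPM, phototherapy over PBS, for the 10 highest and 10 lowest named genes. Black points with bars are class II high macrophages with exact 95% counting intervals, open diamonds class II low macrophages, and dotted lines mark 1.5-fold, with Thbs1 at 1.79 and Hspa1b at -2.89.

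Antigen presentation was close between the libraries inside the members. Of 9 measured genes of class II processing and loading 1 was higher and 1 lower, with a median log2 ratio of -0.061. In class II low macrophages the list's median was 0.32. Members of both libraries were chosen by class II transcripts, with which H2-DMb1 and H2-DMa rose, so closeness in this list is a description only. H2-DMb1 stood at 230.4 and 240.3 CPM (-0.06, -0.22 to 0.10), H2-DMa at 285 and 325 CPM (-0.19, -0.33 to -0.05) and Ctss, the cathepsin that trims the invariant chain, at 8615 and 9103 CPM (-0.08, -0.10 to -0.05). The gene past 1.5-fold upward was H2-Ob, a chain of the DO regulator of peptide loading, with 40 treated and 22 PBS UMIs (0.87, 0.08 to 1.69). The gene past it downward was March1, a ubiquitin ligase that removes class II and CD86 from the surface, with 233 treated and 374 PBS UMIs (-0.68, -0.92 to -0.44). Ciita had 6 treated and 12 PBS UMIs, too few to compare. Of the rule's own genes, which are a description, Cd74 had a log2 ratio of -0.43, H2-Aa 0.01, H2-Ab1 -0.18 and H2-Eb1 -0.11.

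Class I and co-stimulatory genes were mostly close too. None of 13 measured class I genes passed 1.5-fold, with a median of -0.16, and H2-K1, a classical heavy chain, was at 2488 and 2433 CPM (0.03). H2-Q7, a nonclassical heavy chain with close copies, stood at -0.39. Of 10 co-stimulation and checkpoint genes none was higher and 1 lower. Cd86, a ligand of CD28, was at 478 and 457 CPM (0.06, -0.05 to 0.18) and Cd274, the checkpoint ligand PD-L1, at 134 and 123 CPM (0.12, -0.10 to 0.33). Icosl, the ligand of ICOS on T cells, was the lower gene, with 23 treated and 38 PBS UMIs and an interval that crossed 0 (-0.72, -1.53 to 0.06).

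Of 17 macrophage identity genes, 15 lay within 1.5-fold, and the list's median was -0.052. Cd14, the co-receptor for bacterial lipopolysaccharide, was higher, with 1841 treated and 1141 PBS UMIs, or 656 and 405 CPM (0.69, 0.59 to 0.80). Maf, a transcription factor of resident macrophages, was lower at 163 and 246 CPM (-0.60, -0.77 to -0.43), just past 1.5-fold, and stayed past it in 6 of 13 alternatives, at log2 ratios of -0.64 to -0.50. Lyz2, lysozyme, was at 3892 and 3801 CPM (0.03) and Ms4a7 at 1624 and 1955 CPM (-0.27). Of 8 complement genes other than C1q, C5ar2, a receptor for the C5a fragment, was the 1 lower gene with 37 and 75 UMIs (-1.01, -1.62 to -0.43). The C5a receptor C5ar1 (-0.08), the C3a receptor C3ar1 (-0.29) and Cfb, complement factor B (-0.06), lay within 1.5-fold. The list of Fc gamma receptors, which bind antibody, had 5 genes, with Fcer1g counted among them as a signalling chain. Of these, Fcgr4 was lower at 211 and 329.7 CPM (-0.64, -0.79 to -0.49). The inhibitory Fcgr2b stood at 897 and 690.3 CPM (0.38, 0.29 to 0.46).

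Type I interferon genes leaned lower in treated members. Of 23 measured genes, 3 were lower and none higher, 22 had a log2 ratio below 0, and the list's median was -0.32 against -0.016 over all genes. Isg15, a ubiquitin-like modifier, had 303 treated and 477 PBS UMIs, or 108 and 169 CPM (-0.65, -0.86 to -0.44). Ifit1 stood at -0.75 and Ifit2, likewise an RNA-binding effector, at -0.61, and Ifih1, the RNA sensor MDA5, at -0.53. Irf9, the DNA-binding part of the interferon-activated factor, was the gene above 0, at 0.25. The list's median stayed between -0.42 and -0.23 under every alternative run. Class II low macrophages had a median of -0.46 for the same list. Of 13 interferon gamma genes, which include inducers of class II, 1 was lower and none higher, with a median of -0.068. Cxcl9, a chemokine for activated T cells, was at 380.3 and 364 CPM (0.06, -0.06 to 0.19), and Gbp5, a guanylate-binding protein, was the lower gene with 34 and 62 UMIs (-0.86, -1.51 to -0.24).

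Il1b was higher in treated members, and Tnf was not. The monocyte gene Ccr2, which the rule limits, was also higher, with 681 treated and 410 PBS UMIs (0.74, 0.56 to 0.92), and the part of monocyte transcripts in these ratios was not tested. Il1b, the cytokine interleukin 1 beta (chromosome 2, 129364570 to 129371139, minus strand), had 4119 treated and 2562 PBS UMIs, or 1467 and 909 CPM, a log2 ratio of 0.69 (0.62 to 0.76). Transitional macrophages had 2619 and 1944 CPM of Il1b, more than the members of either library. Nlrp3, the sensor of the inflammasome that matures interleukin 1 beta, was at 286 and 188 CPM (0.61, 0.45 to 0.77), and the neutrophil chemokines Cxcl1 and Cxcl2 were at log2 ratios of 0.96 (0.43 to 1.5) and 0.51 (0.45 to 0.58). A single PBS barcode held 23 of the 47 PBS UMIs of Cxcl1, whose log2 ratio was 1.61 without the top barcode of each library and 0.60 to 1.92 over all alternatives. The other retained barcodes held 164 and 73.5 CPM of Cxcl1, more than the 32.4 and 16.7 CPM of members. Their part in its ratio was not tested. Tnf, at 87.2 and 106 CPM (-0.28, -0.53 to -0.03), lay on the other side of 0. Il12b, a chain of interleukin 12, had 4 treated UMIs in 3 members and 91 PBS UMIs in 3 members. A single PBS barcode held 81 of them, and the log2 ratio of -4.50 became -1.73 without the top barcode of each library. Of 10 measured genes of the list 3 were higher and 1 lower.

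Among 13 chemokine genes 1 was higher and 3 lower, and the median was -0.013. Besides Ccl12, the lower genes were Cxcl14, which attracts monocytes and dendritic cells, with 54 treated and 133 PBS UMIs (-1.30, -1.78 to -0.83), and Ccl3, an inflammatory chemokine, at 537 and 834 CPM (-0.64, -0.73 to -0.54). Ccl4, likewise an inflammatory chemokine, was at 1796 and 2193 CPM (-0.29, -0.34 to -0.23) and Pf4, platelet factor 4, at 469.6 and 414 CPM (0.18, 0.07 to 0.30). The 1 higher gene was Cxcl1, whose level was higher in the other retained barcodes than in members, as given above. Of 16 damage sensing genes, Clec4e, a lectin that senses dead cells and fungi, was higher with 104 treated and 39 PBS UMIs (1.42, 0.88 to 1.99), as was Nlrp3. With barcodes thinned to 2000 UMIs and shallower ones left out, the log2 ratio of Clec4e was 0.22. Transitional macrophages held 132 and 135 CPM of Clec4e, against 37.0 and 13.8 CPM in members, and the part of monocyte transcripts was not tested. Cgas, the sensor of cytosolic DNA, was lower at 23.5 and 38 CPM (-0.69, -1.16 to -0.24), and Tlr4 had 143 and 144 UMIs (-0.01, -0.35 to 0.34).

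Lipid handling had the most genes higher by count, 6 of 22, with 1 lower and a median of 0.14. By share, more were higher in the lists of cyclic AMP breakdown and sensing (3 of 5), matrix remodelling (4 of 12) and inflammatory activation (3 of 10). Lgals3, galectin 3, had 4410 treated and 2687 PBS UMIs, or 1570.2 and 954 CPM (0.72, 0.65 to 0.79), and was detected in 90.5 and 75.8% of members. Spp1, osteopontin, was at 506 and 319.8 CPM (0.66, 0.54 to 0.78), Nceh1, a cholesterol ester hydrolase, at 117 and 66.7 CPM (0.81, 0.54 to 1.07) and Abca1, the cholesterol exporter, at 438 and 289 CPM (0.60, 0.47 to 0.73). Cd36, a scavenger receptor for fatty acids and oxidised lipoprotein, had 44 and 26 UMIs (0.76, 0.03 to 1.52), and Lpl is given above. Of the Cd36 UMIs, 13 lay in 1 treated barcode, the log2 ratio was 0.44 without the top barcode of each library, and the gene was detected in 4.51% of treated and 4.83% of PBS members. Apoe, the apolipoprotein of macrophages, went the other way at 6987 and 9372 CPM (-0.42, -0.45 to -0.40). The lipid receptor Trem2 stood at 185 and 170.0 CPM (0.12, -0.06 to 0.30). Spp1 was uneven, with 37.5% of treated and 46.1% of PBS UMIs in 5 members.

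Uptake and degradation genes were close. Of 12 phagocytic and scavenger receptors 1 was higher and none lower, the higher gene being Cd36, whose call ended without its top barcodes (0.44), and Axl, a receptor for dying cells, was at 206 and 192 CPM (0.10). Of 18 lysosomal genes none was higher and 1 lower. The cathepsins Ctsb, whose end another gene overlaps, and Ctsc stood at 0.26 and 0.18.

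Matrix remodelling genes leaned higher. All 12 measured genes had a log2 ratio above 0, 4 were higher and none lower, and the median was 0.32. After Thbs1, the highest were the macrophage elastase Mmp12, with 237 treated and 88 PBS UMIs (1.43, 1.08 to 1.8), and the collagenase Mmp13, with 104 and 62 UMIs (0.75, 0.28 to 1.23). Both came from few cells, since Mmp12 was detected in 9.02% of treated and 3.14% of PBS members and Mmp13 in 8.22 and 3.38%, and Mmp1b overlaps the end of Mmp12. Plaur, the urokinase receptor, stood at 212 and 134 CPM (0.66, 0.47 to 0.85). Tgfbi, a matrix adaptor protein, was at 1646 and 1225 CPM (0.43, 0.36 to 0.49) and Fn1, fibronectin, at 218 and 195 CPM (0.16, -0.01 to 0.33). Fibroblast markers, summed above, were at 428 CPM in treated and 286 CPM in PBS members, and their part in these ratios was not tested. The list's median lay between 0.23 and 0.48 under every alternative run. In class II low macrophages that median was 0.22, with Mmp12 at 1.68, Mmp13 at 1.58 and Fn1 at -0.73.

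Of 9 growth factor genes 2 were higher and none lower. Nrg1, a ligand of ERBB receptors, had 74 treated and 19 PBS UMIs (1.97, 1.22 to 2.78), and Igf1, insulin-like growth factor 1, had 40 and 18 UMIs (1.16, 0.32 to 2.05), so both rest on few transcripts, and 5 members of each library held 63.5 and 63.2% of those of Nrg1. Nrg1 stood at 26.3 and 6.74 CPM in members and higher, at 41.9 and 33.3 CPM, in the other retained barcodes, whose part in its ratio was not tested. In class II low macrophages the log2 ratio of Nrg1 was 0.29 (-0.98 to 1.70). Vegfa, the vascular growth factor, was at 74.4 and 51.5 CPM (0.53, 0.22 to 0.85) and Osm, oncostatin M, at 111 and 80.6 CPM (0.46, 0.21 to 0.71). Of 5 measured genes of cyclic AMP breakdown and sensing, 3 phosphodiesterases were higher, Pde4d (0.90, 0.55 to 1.25), Pde4b (0.64, 0.51 to 0.76) and Pde3b (0.62, 0.46 to 0.78). Pde4b had 1295 treated and 836 PBS UMIs. The list's median was 0.62 in members and 0.58 in class II low macrophages, where Pde4b stood at 1.01 and Pde3b at 1.13. Pde4a was lower with 17 and 37 UMIs (-1.12, -2.04 to -0.25), and the prostaglandin E2 receptor Ptger4, which Ttc33 overlaps, stood at -0.35.

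Alternative activation and suppressive genes were mostly within 1.5-fold, with list medians of -0.32 and 0.15. Of 7 measured alternative activation genes 2 had a log2 ratio above 0, and the list's median was 0.31 in class II low macrophages. In members that median lay between -0.43 and -0.02 under the alternatives run. Arg1, the arginase of tumour macrophages, had 215 treated and 207 PBS UMIs (0.06, -0.22 to 0.34), and 32.6 and 42.0% of them lay in 5 members of each library. Mrc1, the mannose receptor, was at 122 and 129 CPM (-0.07, -0.29 to 0.14) and Il10 had 44 and 39 UMIs (0.18, -0.48 to 0.84). Pparg, a lipid-sensing nuclear receptor, was the lower gene of 7 measured, with 52 and 102 UMIs (-0.97, -1.48 to -0.47). Of 11 suppressive genes 1 was higher, Nt5e, the adenosine-forming enzyme CD73, with 84 and 46 UMIs (0.87, 0.34 to 1.42). Entpd1, the enzyme CD39 of the same route, was at 237 and 181 CPM (0.39, 0.23 to 0.56). Of 6 measured genes of B cell help none was higher and 2 lower, Icosl and the cytokine Il15 (-0.59, -1.07 to -0.13), and the list's median was -0.36. The log2 ratio of Il15 was -0.09 with barcodes thinned to 2000 UMIs and shallower ones left out. Tnfsf13b, the B cell survival factor BAFF, was at 78.7 and 111 CPM (-0.50, -0.75 to -0.24), and the follicle chemokine Cxcl13 had 3 treated and 1 PBS UMIs.

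Heat shock and immediate early genes, which respond to stress and to tissue dissociation, pointed different ways. Of 11 heat shock genes 2 were lower, Hspa1a and Hspa1b, and the others lay within 1.5-fold, among them Hspa8 at 911 and 973 CPM (-0.09) and Hsph1 at -0.56. Of 18 immediate early genes 13 had ratios above 0, with a median of 0.25. Nr4a1, an orphan nuclear receptor, was higher at 134 and 68.1 CPM (0.97, 0.72 to 1.23), Fos stood at 4916 and 4387 CPM (0.16) and Dusp1, a kinase phosphatase, at 1894 and 1485 CPM (0.35), while Egr1 (-0.54) and Jun (-0.44) lay below 0. None of 14 NF-kB genes passed 1.5-fold, with Tnfaip3, an inhibitor of the pathway, at 375 and 264 CPM (0.50, 0.37 to 0.64). The sources used here do not say how long each suspension took to prepare.

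Redox, oxidase and glycolytic genes held few large ratios. Of 19 redox and iron genes 1 was higher, the cystine transporter Slc7a11, with 383 treated and 201 PBS UMIs, or 136 and 71.3 CPM (0.93, 0.68 to 1.19). Fth1, ferritin heavy chain, was at 12764 and 9649 CPM (0.40, 0.38 to 0.43) and Hmox1, haem oxygenase 1, at 58 and 66.4 CPM (-0.19, -0.51 to 0.12). Of 5 NADPH oxidase genes none passed 1.5-fold, and the catalytic subunit Cybb stood at 1609 and 1184 CPM (0.44, 0.38 to 0.51). Of 17 hypoxia and glycolysis genes 1 was higher, Ndrg1, with 62 and 17 UMIs (1.87, 1.08 to 2.74), and 2 were lower, the lactate exporter Slc16a3 (-0.64, -1.11 to -0.19) and Pfkl (-0.77, -1.36 to -0.19). Slc16a3 stayed past 1.5-fold in 8 of 13 alternatives and stood at -0.31 with class II of at least 0.25% of UMIs. Another gene overlaps the end of Ndrg1. Ldha, lactate dehydrogenase, was at 493 and 496 CPM (-0.01).

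**Figure D4:**
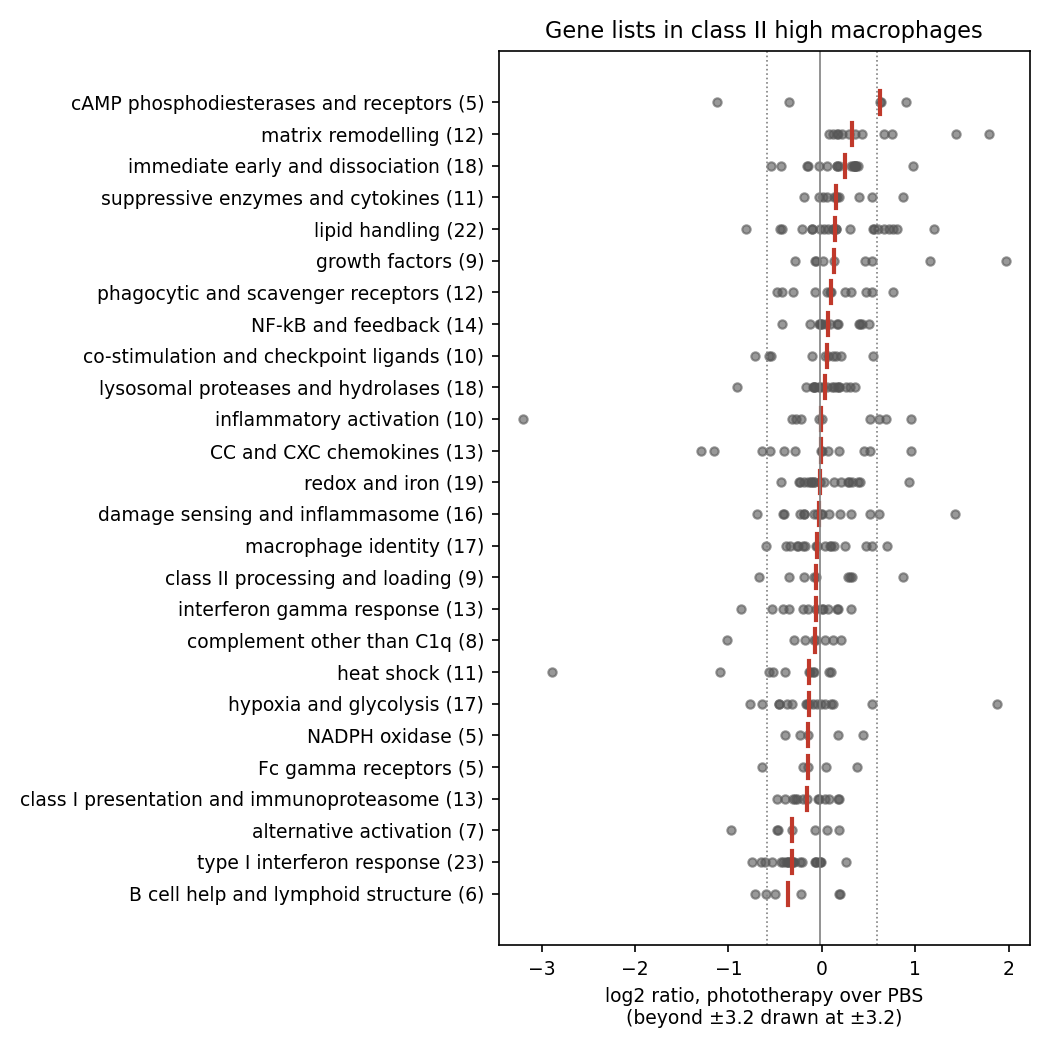
Log2 ratios of treated over PBS CPM in class II high macrophages for every measured gene of 26 lists. Each grey point is a gene, each red bar the list's median, the number of measured genes stands in brackets, dotted lines mark 1.5-fold, and matrix remodelling has all 12 genes above 0 while type I interferon has 22 of 23 below it.

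Several of these differences were seen in the share of cells too. Each barcode was thinned to 1000 UMIs, which left out 5 treated and 15 PBS members, because median depths differ between libraries and cell types. Il1b was then detected in 45.7% of treated and 25.8% of PBS members (unthinned 68.4 and 41.3%), against 1.63 and 0.722% of B cell barcodes, whose median depths were 1308 and 1632 UMIs. Cxcl2 was detected in 46.2% of treated and 23.8% of PBS members (unthinned 65.3 and 32.1%), Cd14 in 37.4% of treated and 16.5% of PBS (unthinned 75.6 and 44.9%) and Lgals3 in 69.1% of treated and 42.9% of PBS (unthinned 90.5 and 75.8%). The B cell shares of these genes were 3.1 and 2.17%, 0.98 and 0.361% and 5.88 and 6.14%. In the other direction, Ccl12 was detected in 24.5% of treated and 40.4% of PBS members (unthinned 43.8 and 57.7%, B cells 0.817 and 2.17%) and Hspa1b in 1.34% of treated and 6.27% of PBS (unthinned 5.04 and 15.7%, B cells 0.163 and 0.722%). The share of Cxcl9 was alike, at 15.3% of treated and 15.5% of PBS members (unthinned 27.6 and 30.7%, B cells 0.817 and 0.361%). Pde4b and Nr4a1 are left as CPM, since their thinned shares of 28.8% of treated and 15.3% of PBS and 15.9% of treated and 6.27% of PBS members lay below those of B cell barcodes, 38.2 and 38.3% and 41.5 and 32.1%. Il7r was detected in 13.2% of treated and 3.01% of PBS members (unthinned 32.1 and 16.4%), against 29.3 and 17.8% of T cell barcodes and 0.49 and 0.361% of B cell barcodes.

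Members also differed from class II low macrophages in genes beyond the rule. The split was made on the same barcodes, so these values are a description with no test. Of 7528 genes in the treated library, 319 were at least 1.5-fold higher (4.24%) and 586 lower (7.78%) in class II high cells, and of 7121 in the PBS library 7.01% were higher and 10.7% lower. Of 6945 genes measured in both libraries, 97 were at least 1.5-fold higher in class II high cells of both (1.4%) and 165 lower in both (2.38%). Of 8 measured genes of class II processing and loading, 2 were higher in both libraries and none lower in both. Of these 2, H2-DMb1 had log2 ratios of high over low of 2.0 and 1.90 in the treated and PBS libraries and H2-DMa 0.99 and 1.24. Ctss (0.37 and 0.77) and March1 (0.42 and 0.02) did not pass in both. The highest of the named genes were Dnase1l3, a secreted DNA-degrading enzyme (2.54 and 3.34), and, after H2-DMb1, Klrb1b, a lectin-like receptor (1.65 and 2.12). Il1b (1.58 and 1.77) and the complement protein C3 (1.41 and 1.41) followed, and then Tmem176a and Tmem176b, neighbouring membrane protein genes (1.38 and 1.09, and 1.16 and 1.12), Spon1 (1.26 and 1.06) and St8sia4, a sialic acid transferase (0.89 and 1.64). A single PBS barcode held 74 of the 351 PBS UMIs of Dnase1l3 in members. Dendritic barcodes held 103.8 and 116.7 CPM of Klrb1b, against 65.5 and 78.1 CPM in members. Their St8sia4 stood at 232.7 and 285.1 CPM, against 136 and 112 CPM in members. They held less Spon1, Tmem176a and Tmem176b than members, and the part of dendritic transcripts in these ratios was not tested. Of 8 co-stimulation and checkpoint genes measured, 3 were higher in both libraries, Cd40, the receptor for CD40 ligand (1.38 and 1.06), Cd80 (0.86 and 0.72) and Cd274 (0.65 and 0.63).

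Lower in class II high cells of both libraries were Arg1 and Spp1, known from other states of tumour macrophages, among others. Arg1 had log2 ratios of -1.46 and -1.21, Pf4 -1.39 and -0.72 and Spp1 -0.69 and -1.04. Psd3, an exchange factor for small GTPases (-1.02 and -1.05), Pde4d (-0.72 and -1.04), Nav1 (-0.75 and -1.28), S100a10 (-0.68 and -1.28), Ahnak (-0.73 and -0.87), Trim28 (-0.72 and -0.72) and Fam162a (-0.80 and -0.76), overlapped by Wdr5b, completed the 10 lowest. Tumour markers summed to 122 and 127 CPM in class II high and 176 and 428 CPM in class II low cells, and fibroblast markers to 428 and 286 against 337 and 1041 CPM, so PBS class II low cells held more of both, and their part in these ratios was not tested. Monocyte markers summed to 352.5 and 247 CPM in class II high and 180.4 and 205.2 CPM in class II low cells. Conventional dendritic markers summed to 85.1 and 92.3 against 76.4 and 83.4 CPM, and the part of either was not tested. Median depth differed too, at 6976 and 6242 UMIs in class II high and 6842 and 4381 UMIs in class II low cells. C1qa itself stayed within 1.5-fold, at log2 ratios of 0.03 and 0.38.

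Several of these genes were ordered along the class II range. Members and class II low cells were binned by class II share of UMIs at under 0.5, 0.5 to 1, 1 to 2, 2 to 4 and at least 4%, and the highest bin held 20 treated and 45 PBS cells. H2-DMb1 stood at 57.8, 113, 210.1, 303 and 490.2 CPM over these treated bins and at 64.6, 105, 169, 312 and 468 CPM over the PBS bins, higher at each step in both libraries. Il1b was at 489, 757, 1190.3, 2003 and 3483 CPM in the treated and 266, 278, 944, 955 and 1999 CPM in the PBS library, so the treated library was higher in every bin. Arg1 was at 210.2, 82, 115, 40.8 and 25.8 CPM and 170.1, 121, 106, 41 and 0 CPM, and its PBS UMIs in the highest bin were 0, with an upper bound of 12.6 CPM. Pf4 was at 1234, 783, 462, 306 and 43 CPM and 680.3, 679, 336, 401 and 113 CPM, lowest in the highest bin of each library. Spp1 was at 818, 666, 723, 204 and 301 CPM and 656, 434, 517, 164 and 92.3 CPM, lower in both bins from 2% upward than in any bin under 2%. Ccl12 followed another course, at 1442, 851, 753, 818 and 697 CPM in the treated and 1347, 2522, 1415, 1779.8 and 1179 CPM in the PBS library. Its treated level was lower in each member bin than below the threshold, while its PBS level was highest at 0.5 to 1%. Dnase1l3 was at 24, 45.2, 86.7, 227 and 396 CPM and 12.3, 73.2, 65.7, 80.1 and 564 CPM, highest in the top bin of each library.

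**Figure D5:**
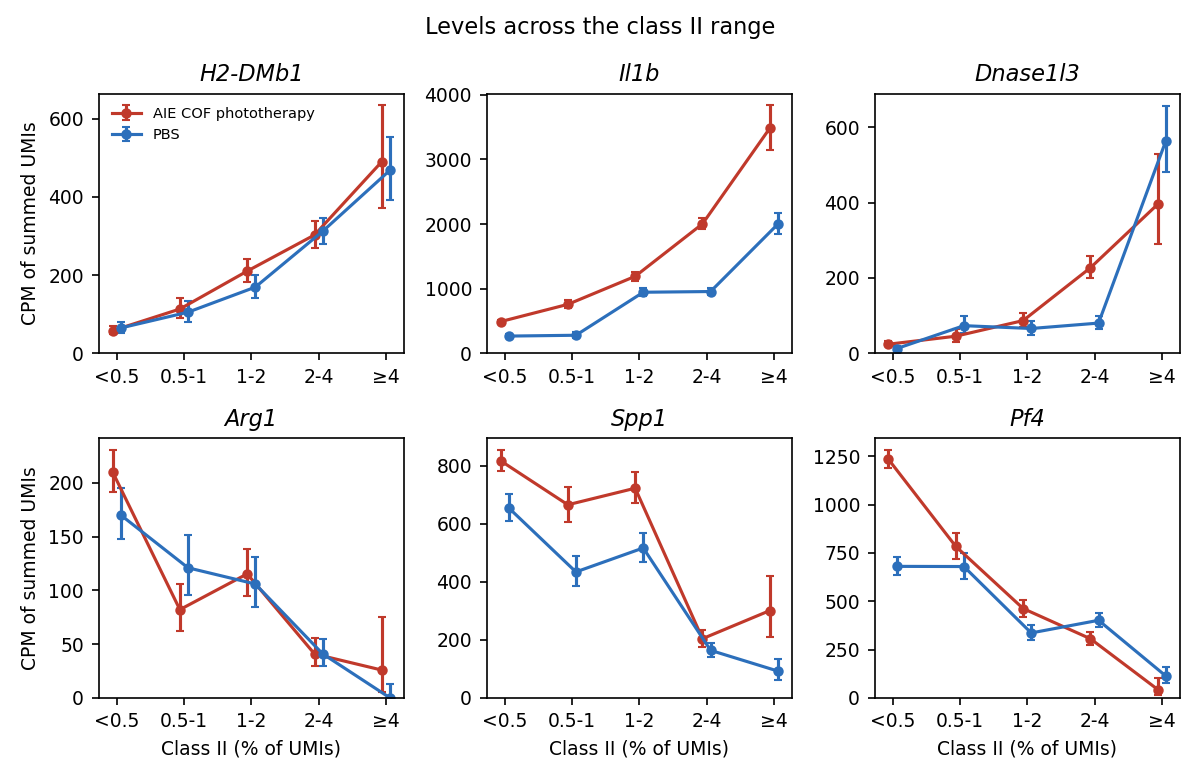
Levels of 6 genes across the class II range. The x axis is the class II share of UMIs in %, with the lowest bin being class II low macrophages, the y axis the CPM of summed UMIs with exact 95% counting intervals, red the phototherapy and blue the PBS library, and Il1b is higher in the treated library in every bin, from 489 against 266 CPM in the lowest to 3483 against 1999 CPM in the highest.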

How the data were processed

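Tumour cell suspensions of the 2 groups were sequenced as 1 library each with a MobiCube 3′ kit, per the labels' protocols. The authors deposited whole-number UMI counts per gene and barcode for 32285 genes. STAR and mm10 are named, per the submitters' processing notes, while versions, annotation and the counting tool were not given in the sources read. The members, gene lists and tests were chosen with earlier results of these data known.

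UMIs were summed over the members of each library, divided by their total, and compared as ratios with exact conditional binomial intervals. CPM carry exact Poisson and shares exact Clopper-Pearson intervals, all at 95% and for counting error only. The lists use genes with at least 50 UMIs over both libraries. No test across samples was run, as each group is 1 library. Interval code was tested on simulated data. Doublets were left in, and Scrublet in scanpy 1.11.5, which by its own threshold called 1 treated and 0 PBS barcodes, gave 694 and 569 barcodes for an alternative at a set rate, 27 and 10 of them members.

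Named genes were those of the rule, the 10 highest and 10 lowest ratios among genes with a mean of at least 50 CPM and a UMI in at least 10% of members of a library, leaving out mitochondrial, ribosomal, haemoglobin, immunoglobulin and unnamed genes and those with 5 times the level in another group, the 3 most abundant and the 3 with the largest ratio in each list, and the 10 highest and 10 lowest of class II high over low. Others, such as Plaur, Ccl3, Abca1, Adgre1, Csf1r, Irf9 and the low counts, were named after their values were seen. Some genes that met the rule are not reported here. Gene positions are those of GENCODE M21 on GRCm38, and promoters are from RefSeq on GRCm38.p6. Alternatives changed the rule, the filters, the doublets, the depth, the scaling and the count minimum.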

Additional observations from a re-analysis of the deposited data

Results flagged for a closer look

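Treated over PBS ratios on opposite sides of 1 in class II high and class II low macrophages marked 2 results. Neither difference was tested, since each group is 1 library. Class II high macrophages had a treated over PBS ratio of 0.825 as a share of retained barcodes, while class II low macrophages had 1.40. The first ratio was 1.14 with barcodes of at least 5000 UMIs and 1.03 with barcodes thinned to 2000 UMIs. Both settings leave out shallower barcodes, and no direction is drawn from this ratio. Ccl12 had a treated over PBS log2 ratio of -1.15 in class II high macrophages, at 2243 treated and 5005 PBS UMIs. In class II low macrophages it was 0.10 (0.01 to 0.19), so the libraries were close there rather than clearly reversed.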

How the results depend on the processing

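The ratio of shares among retained barcodes, 0.825, turned to 1.14 with barcodes of at least 5000 UMIs. It turned to 1.03 with barcodes thinned to 2000 UMIs and shallower ones left out, and was 0.603 over Ptprc-positive barcodes. The cause was not tested. The genes at least 1.5-fold higher in treated members numbered 409, but 1307 with no filter on low counts and 128 with at least 200 UMIs, where more or fewer genes are compared. The genes at least 1.5-fold lower in treated members numbered 565, but 1846 with no filter, 121 with at least 200 UMIs and 328 with thinning, which leaves fewer UMIs. For class II high over low in both libraries, settings added after seeing the data gave 57 genes higher under thinning in place of 97. In place of 165 genes lower they gave 41 under thinning, 91 without Scrublet doublets and 92 without barcodes holding transcripts of other cell types. The 62 named genes past 1.5-fold kept their direction in all 13 settings tried for them, and 54 to 62 stayed past it. Past it in the fewest of these settings were Il15 (5), Maf (6), Slc16a3 (8), Cd36 (9), Ifit2 (10) and Nlrp3 (10). Of the 62, Clec4e ranged from 0.22 to 1.55, Il15 from -0.99 to -0.09 and Il12b from -4.96 to -1.73 on the log2 scale. Medians of the chemokine, co-stimulation, damage sensing, inflammatory, lysosomal, macrophage identity and redox lists crossed 0 in at least 1 setting. No paired analysis was possible because each group is 1 library. Counting error is the only error known here, and genes with few UMIs or with most of them in a few cells are the least certain.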
